A study of Equus caballus with 22 samples.

Results

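The vascular genes VEGFA, ANGPTL2, PECAM1 and CDH13 were followed in the endometrium, the inner layer of the uterus, of warmblood mares in early pregnancy. All probes of the horse array whose transcript name is a RefSeq transcript of 1 of the 4 genes were taken, without regard to their values. This gave 17 of the 43603 probes, namely 10 for VEGFA (NM_001081821), 2 for ANGPTL2 (XM_001501670), 3 for PECAM1 (NM_001101655) and 2 for CDH13 (NM_001109812), and all 17 passed the filter on dim probes that 38456 probes passed. The 4 genes stand among 675 genes that could be named. They had been put together with the day 12 pregnancy effect and the day difference of the control samples in view, so those values are given as a description without a test. The comparison of pregnant samples between the days shares the day 12 pregnant arrays with that choice and is treated in the same way.

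VEGFA encodes the vascular endothelial growth factor that drives the sprouting and the permeability of blood vessels. ANGPTL2 encodes a secreted protein related to the angiopoietins which, in human and mouse cells, acts through integrin receptors rather than the angiopoietin receptors. PECAM1 encodes an adhesion molecule at the junctions between endothelial cells, which is also carried by platelets and leukocytes. CDH13 encodes T-cadherin, an unusual cadherin with a lipid anchor in place of a tail inside the cell, which binds adiponectin and is found on endothelial and smooth muscle cells in human and mouse. The early equine conceptus stays free in the uterine lumen for an unusually long time and is fed by secretions of the endometrium, which depend on its blood supply.

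Biopsies were compared from 4 groups. The day 12 pregnant group held 6 mares, biopsied after their embryo had been recovered, and the day 12 control group held the same 6 mares at the matching non-pregnant stage. The day 8 pregnant group and the day 8 control group held 5 mares each in the same arrangement. Every mare thus gave 1 pregnant and 1 control array, 22 in all. Mare numbers 1, 2, 4, 5 and 6 recur at both days, and the labels do not say whether they are the same animals.

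Each level is a log2 intensity minus the 75th percentile of its array, so that 0 is the brightness of that percentile. The percentile itself lay between 577 and 1863 intensity units, 74.2% to 92.9% of spots per array were well above background, and no spot was saturated. The number of arrays limits the precision. Arrays of the 2 days were scanned on separate slides and scan days, 4 slides for day 12 and 3 for day 8. The version of the software that extracted the intensities also differed between the days. Slide, scan day, software version and day therefore cannot be told apart. Both arrays of every mare lay on 1 slide. Because whole tissue was measured, fewer cells of a type and less RNA per cell cannot be told apart for any gene below.

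Each gene is represented by its brightest probe, with the other probes given beside it. VEGFA probes were dim, with 9.34 to 94.98 intensity units over all probes and arrays, yet each was well above background on all 22 arrays. ANGPTL2 gave 767 to 4503 units, PECAM1 314 to 4485 and CDH13 294 to 3507, and these probes too were above background on every array. After the mean of each group had been subtracted, probes of 1 gene varied together over the 22 arrays. Pearson's r lay between 0.847 and 0.960 for the 45 pairs of VEGFA probes and between 0.813 and 0.919 for the 3 pairs of PECAM1 probes. It was 0.966 for the ANGPTL2 pair and 0.984 for the CDH13 pair. These correlations are descriptive, since probes of a gene share the RNA and the array.

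VEGFA differed little between the groups. Its level ran from -4.76 to -3.67 with a median of -4.23 in day 12 pregnant mares, and from -4.72 to -3.81 with a median of -4.44 in day 12 control samples. At day 8 it was -4.42, -3.87, -4.81, -4.32 and -4.70 in the pregnant samples of mares 1, 2, 4, 5 and 6, against -4.66, -4.49, -4.38, -4.47 and -5.00 in their control samples. The ranges overlapped at both days. The lowest and the highest of all 22 values lay in a day 8 control sample and a day 12 pregnant sample.

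ANGPTL2 was lowest in day 12 control samples. Its level ran from 0.60 to 1.70 with a median of 1.13 in day 12 pregnant mares, and from -0.11 to 0.99 with a median of 0.38 in day 12 control samples. At day 8 it was 0.75, 0.68, 1.11, 1.30 and 0.68 in pregnant samples, against 0.47, 0.99, 0.75, 1.23 and 0.34 in control samples, in the same order of mares. Mare 4 was the highest in both states at day 12 and mare 5 in both states at day 8. Here the day 12 ranges overlapped although each mare was higher when pregnant.

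PECAM1 was higher at day 12 than at day 8. Its level ran from 0.51 to 1.51 with a median of 0.96 in day 12 pregnant mares, and from -0.13 to 1.07 with a median of 0.61 in day 12 control samples. At day 8 it was 0.08, 0.21, 0.02, 0.04 and -0.05 in pregnant samples, against 0.28, -0.22, 0.05, -0.33 and -0.02 in control samples. The day 8 pregnant values lay close together, with a standard deviation (SD) of 0.09 (n = 5), and all of them were below the lowest day 12 pregnant value.

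CDH13 was highest in day 12 pregnant mares. Its level ran from 0.27 to 0.91 with a median of 0.57 there, and from -1.03 to 0.36 with a median of -0.46 in day 12 control samples. At day 8 it was -0.12, -0.90, -1.10, -1.21 and -0.75 in pregnant samples, against 0.30, -1.48, -1.39, -1.54 and -1.05 in control samples. Mare 1 stood above the other 4 mares in both states at day 8, and its control sample was 1 of the 2 control samples, with that of mare 3 at day 12, that reached the range of the day 12 pregnant mares.

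**Figure D1:**
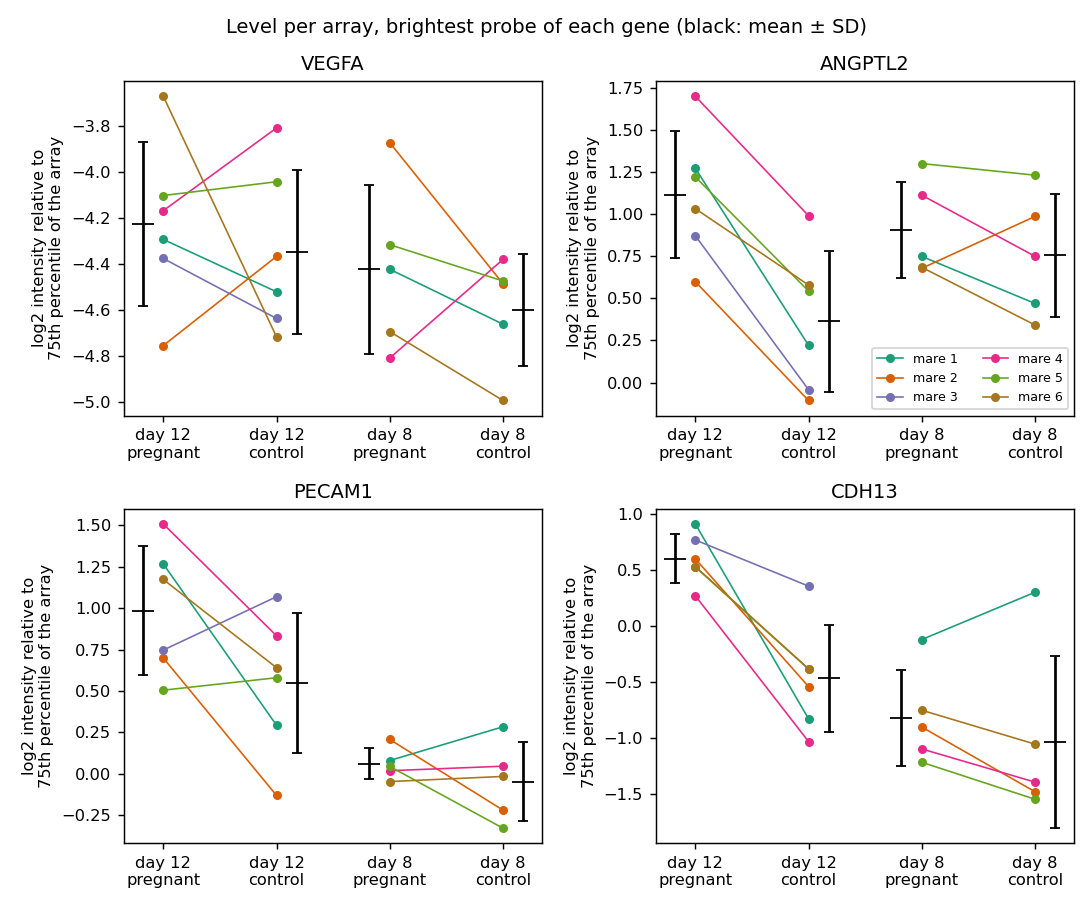
Level of the brightest probe of each gene (log2 intensity minus the array's 75th percentile) in each of the 22 arrays, with lines joining the pregnant and control samples of a mare and black marks for the group mean ± SD (n = 6 mares at day 12, n = 5 at day 8). The ANGPTL2 and CDH13 lines run downwards to the control sample in all 6 mares at day 12. The pregnant samples of the 2 days lie apart for both PECAM1 and CDH13.

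Ordered by their means, day 8 control samples were lowest for VEGFA, PECAM1 and CDH13, followed by day 8 pregnant, day 12 control and day 12 pregnant samples. For ANGPTL2 the order from the lowest was day 12 control, day 8 control, day 8 pregnant and day 12 pregnant. Neighbouring groups in these orders overlapped in range for all 4 genes. Only for CDH13 between day 12 pregnant and day 12 control samples, and for PECAM1 at the 2 steps above day 8 pregnant samples, was the difference of neighbouring means larger than the larger SD of the pair.

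At day 12, ANGPTL2 and CDH13 were higher in the pregnant than in the control sample of each of the 6 mares. The ANGPTL2 change within a mare ran from 0.45 to 1.05 log2, with a fitted mean of 0.75 ± 0.10 (standard error, SE, n = 6), which is a fold of 1.68. Its other probe gave 0.73. CDH13 changed by 0.41 to 1.74 within a mare, with a fitted mean of 1.07 ± 0.16 or a fold of 2.10, and the other probe gave 1.06. With normexp, another background correction, and relative to the median of all probes, the values were 0.25 for ANGPTL2 and 0.55 for CDH13. The day 12 pregnant array of mare 1 stood apart under normexp, and with mare number 1 also left out they were 0.60 and 0.80. Of all probes, 2.25% were higher in every mare at day 12. Since the genes were chosen on this comparison, nothing is read from their place among these probes.

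PECAM1 and VEGFA were less uniform at day 12. PECAM1 was higher in 4 of 6 pregnant mares, by up to 0.97 in mare 1, but by -0.32 in mare 3 and -0.08 in mare 5. The fitted mean was 0.44 ± 0.16, and the 3 probes gave 0.44 to 0.47, but relative to the median of all probes under normexp its sign turned, to -0.08. VEGFA was higher in 3 of 6 mares, with changes from -0.39 in mare 2 to 1.05 in mare 6 and a fitted mean of 0.12 ± 0.18. Without mare 6 that mean was -0.06, so its sign rests on 1 mare. All 10 VEGFA probes gave small positive means, from 0.04 to 0.25.

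At day 12 the pregnant and control ranges overlapped for all 17 probes. Only 0.233% of all probes had every pregnant array above every control array, so nothing is read from this overlap. For CDH13 it came from 1 control sample, that of mare 3, at 0.36 in the brightest probe. Averaged by slide, the day 12 change of ANGPTL2 was 0.98, 0.71, 0.58 and 0.68 on the 4 slides, and that of CDH13 was 1.08, 1.14, 1.11 and 0.91. The PECAM1 change by slide was 0.33, 0.83, 0.60 and -0.08, with the negative value on the slide that held mare 5 alone. For VEGFA it was 0.24, -0.39, 0.34 and -0.06, so the slides did not share a sign.

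**Figure D2:**
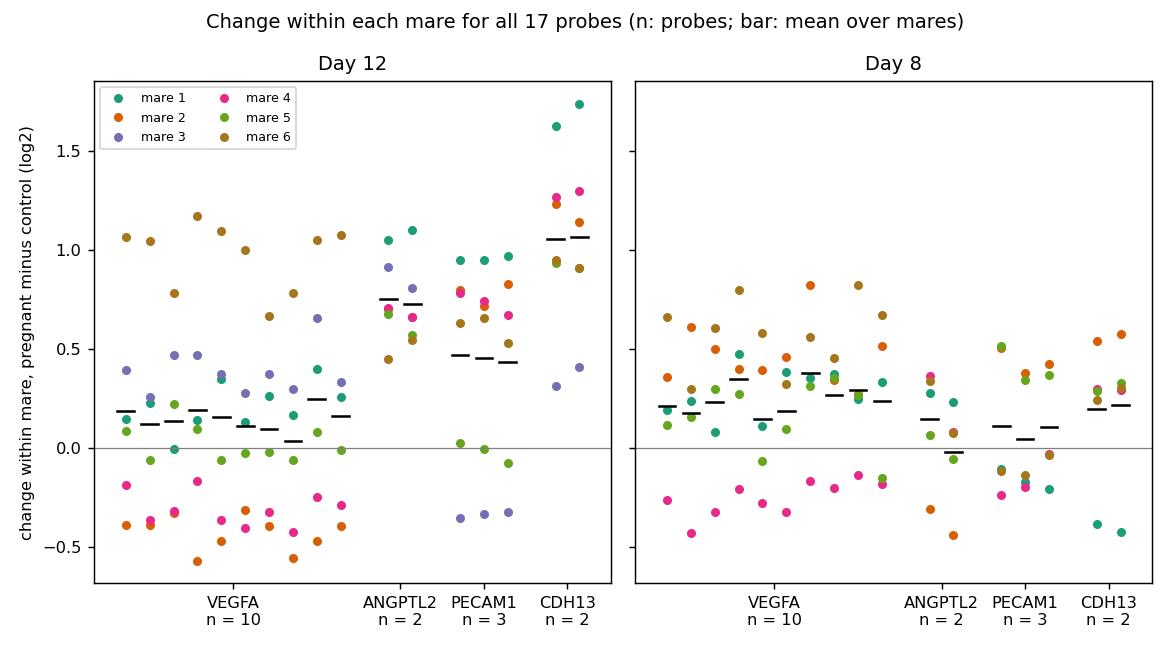
Change within each mare, pregnant minus control sample (log2), for the 17 probes at day 12 (left, 6 mares) and day 8 (right, 5 mares), with a bar for the mean over mares. All points of ANGPTL2 and CDH13 lie above 0 at day 12, mare 6 holds the highest VEGFA change at day 12, and the points of all 4 genes fall on both sides of 0 at day 8.

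At day 8 no change with pregnancy was detectable for any of the 4 genes. The day 8 control arrays had entered the choice through the day difference of the control samples. The p-values below are therefore descriptive and no independent support. VEGFA changed by 0.18 ± 0.20 log2 (SE, n = 5 mares, adjusted p = 0.936 in limma with Benjamini-Hochberg adjustment over all probes), with a 95% confidence interval of -0.25 to 0.61. It was higher in 4 of 5 pregnant mares, all but mare 4. ANGPTL2 changed by 0.15 ± 0.11 (limma adjusted p = 0.890, interval -0.10 to 0.40), higher in 4 of 5 mares. PECAM1 changed by 0.11 ± 0.18 (limma adjusted p = 0.965, interval -0.29 to 0.50), higher in 2 of 5 mares. CDH13 changed by 0.22 ± 0.18 (limma adjusted p = 0.896, interval -0.17 to 0.60), higher in 4 of 5 mares, with mare 1 at -0.42.

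None of the 17 probes passed at day 8, where 0.0% of all probes did, and 1 of them, a VEGFA probe at 0.38, had an unadjusted p under 0.05, as 5.83% of all probes did. Being higher in at least 4 of 5 pregnant mares was shared by 20.1% of all probes. The ranges overlapped for all 17 probes, while 0.144% of all probes had every pregnant array above every control array. The day 8 control arrays had entered the choice of VEGFA in particular. With a mare left out, the day 8 change ran from 0.07 (mare 2) to 0.33 (mare 4) for VEGFA, from 0.10 (mare 4) to 0.26 (mare 2) for ANGPTL2, from 0.03 (mare 2) to 0.19 (mare 1) for PECAM1 and from 0.13 (mare 2) to 0.38 (mare 1) for CDH13, and none passed. The second ANGPTL2 probe gave -0.02 and was higher in 3 of 5 mares. The intervals leave room for changes at day 8, and they do not show that the levels are alike.

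The difference of the pregnancy effects, day 12 minus day 8, contains the comparison on which the genes were chosen and is given without a test. It was 0.60 ± 0.15 log2 for ANGPTL2, 0.85 ± 0.24 for CDH13, 0.33 ± 0.24 for PECAM1 and -0.05 ± 0.27 for VEGFA (SE). Under normexp, relative to the median of all probes, it was 0.02 for ANGPTL2, 0.30 for CDH13, -0.18 for PECAM1 and 0.20 for VEGFA. With mare number 1 also left out these were 0.41, 0.43, 0.11 and -0.01 in the same order. Both probes of ANGPTL2 gave values of 0.60 to 0.75, and those of CDH13 gave 0.85 and 0.86. Without mare number 1 the CDH13 value was 0.56 and that of PECAM1 was 0.14, each the lowest with any number left out. Without mare number 2 the VEGFA value was 0.16.

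Between the pregnant samples of the 2 days, PECAM1 and CDH13 were higher at day 12. PECAM1 was higher by 0.92 ± 0.19 log2 (SE, n = 6 mares at day 12 and 5 at day 8), a fold of 1.90, and its other 2 probes gave 0.89 and 1.13. CDH13 was higher by 1.42 ± 0.20, and its other probe gave 1.17. All 3 PECAM1 probes and both CDH13 probes had every day 12 pregnant array above every day 8 pregnant array, as 5.37% of all probes did, from which nothing is read. The PECAM1 value was 0.89 with slide as a random block and 0.91 with scan day as one, 1.05 in the authors' deposited value table, and 0.76 under normexp, or 0.38 relative to the median of all probes there.

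VEGFA and ANGPTL2 differed less between the pregnant samples of the days. VEGFA had 0.20 ± 0.21 log2 in its brightest probe, and its 10 probes gave 0.20 to 0.46, all positive. With mare number 6 left out the value of the brightest probe was 0.02, and without mare number 2 it was 0.44. For ANGPTL2 the difference was 0.21 ± 0.20, or -0.28 relative to the median of all probes under normexp.

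In the control samples, the differences between the days were 0.25 ± 0.20 log2 for VEGFA, -0.39 ± 0.24 for ANGPTL2, 0.59 ± 0.21 for PECAM1 and 0.57 ± 0.35 for CDH13 (day 12 minus day 8, SE, 6 and 5 mares). ANGPTL2 was the one whose control samples were lower at day 12, in both probes. The 10 VEGFA probes gave 0.25 to 0.74. The probe at 0.74, A_69_P005162, was the single one of the 17 with every day 12 control array above every day 8 control array, as 2.79% of all probes had. Its day 12 control levels ran from -5.20 to -4.33, against -6.02 to -5.34 in day 8 control samples. The other 9 VEGFA probes overlapped between the days. The CDH13 difference was 0.97 without mare number 1.

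**Figure D3:**
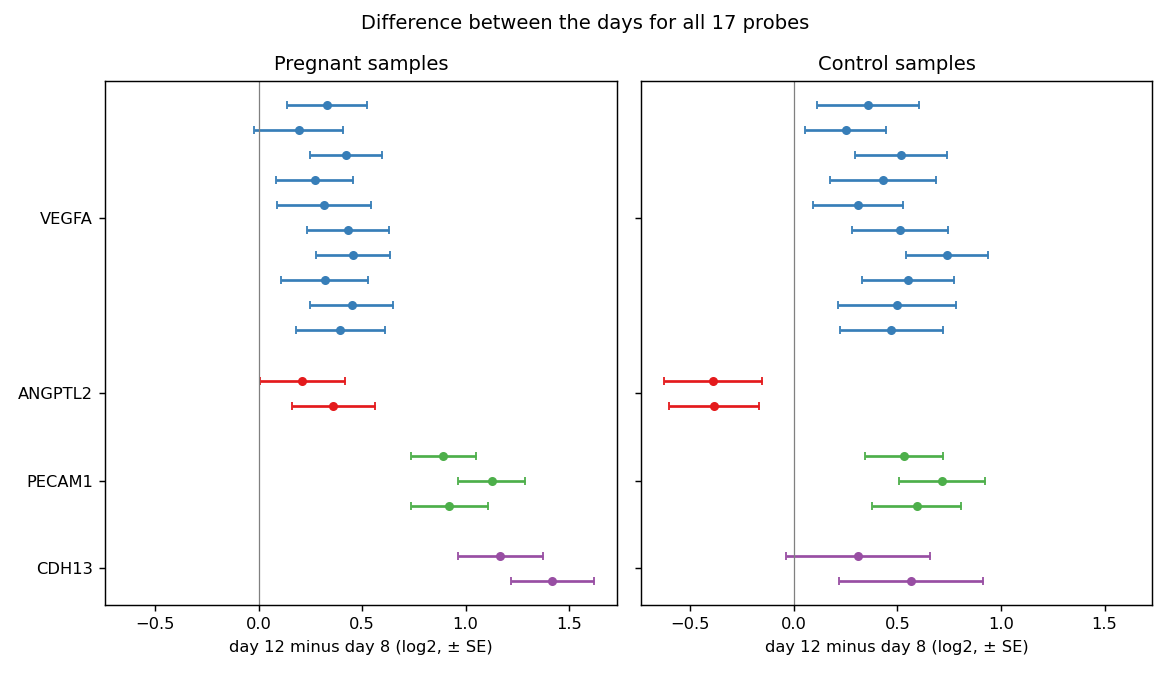
Fitted difference between the days, day 12 minus day 8 (log2, points with SE bars), for each of the 17 probes in pregnant samples (left) and control samples (right), 6 mares at day 12 and 5 at day 8. PECAM1 and CDH13 lie at 0.89 or more in pregnant samples, and ANGPTL2 lies below 0 in control samples only.

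Set side by side, the day difference of PECAM1 was 0.92 in pregnant and 0.59 in control samples, and that of VEGFA was 0.20 in pregnant and 0.25 in control samples. CDH13 gave 1.42 in pregnant and 0.57 in control samples, and ANGPTL2 gave 0.21 in pregnant and -0.39 in control samples. The gap between the 2 states equals the difference of the pregnancy effects given above.

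Over the 22 arrays with group means subtracted, the 4 genes did not vary as a unit. ANGPTL2 and CDH13, which were both higher in all 6 pregnant mares at day 12, had a Pearson's r of -0.54. VEGFA had 0.42 with ANGPTL2, 0.17 with PECAM1 and -0.29 with CDH13. PECAM1 had 0.24 with ANGPTL2 and 0.33 with CDH13. Both arrays of a mare enter these values, so the 22 points are not independent and no p is given.

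The named genes most like VEGFA by this measure were CALU (r = 0.72), which encodes a calcium-binding protein of the secretory pathway, TXNRD1 (0.64), a thioredoxin reductase, and CPT1A (0.64), which brings fatty acids into mitochondria. For ANGPTL2 they included the lectin-like receptor KLRF1 of natural killer cells (0.66) and the epithelial splicing regulator ESRP1 (0.63). For PECAM1 they were the pyruvate kinase PKM (0.85), PRICKLE1 of planar cell polarity (0.77) and SPRED1, an inhibitor of the Ras pathway (0.72). For CDH13 they were the myelin protein gene PMP22 (0.84), BTBD7 (0.81) and LOC100052310 (0.76). Each value is over 22 arrays, and the genes are taken from the 3 highest of all named genes in each case.

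Other vascular genes were taken from 9 lists with 129 genes, of which 21 had a named probe that was tested. These lists and the cell marker lists below were drawn up with earlier results of these data known. The p-values of their genes are therefore descriptive and no independent support. None of the measured genes was another VEGF ligand, a VEGF receptor or a member of the angiopoietin system. No gene could be named for 42208 of the 43603 probes, so such genes may be on the array without a name here. At day 12, 17 of the 21 were positive and 4 negative, with a median of 0.29 log2 against -0.02 over all probes, and none passed the test, where 0.265% of all probes did. At day 8, 17 were positive and 4 negative as well, with a median of 0.12 against -0.01 over all probes, and again none passed. Over all probes, whose medians were negative at both days, negative values were at least as many as positive ones. Nothing is read from the counts, because the lists were not independent of the data.

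Among angiogenic growth factors and their receptors, the measured members were MET, TGFB1, IGF1 and IGF2. MET, the receptor of hepatocyte growth factor, had 0.41 ± 0.14 at day 12 (limma adjusted p = 0.254) and IGF2, a fetal growth factor, had 0.48 ± 0.21 (limma adjusted p = 0.376). TGFB1, a growth factor that stabilises vessels, had 0.31 ± 0.13 at day 12 and -0.22 ± 0.14 at day 8. Among the inhibitors of angiogenesis, TIMP1, a blocker of matrix metalloproteinases, was higher in 6 of 6 pregnant mares at day 12 with 0.60 ± 0.15 (limma adjusted p = 0.117). SERPINF1, which encodes pigment epithelium-derived factor, was lower in all 6, with -0.24 ± 0.11 (limma adjusted p = 0.407).

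SPARC, a matrix protein that binds growth factors, was higher in 6 of 6 with 0.22 ± 0.11 (limma adjusted p = 0.452), TIMP3 had 0.34 ± 0.16 and CXCL10 had 0.39 ± 0.27. IGF1, a growth factor, had 0.14 ± 0.14.

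Among the endothelial adhesion genes, the leukocyte receptors VCAM1 and SELE had 0.08 ± 0.18 and 0.11 ± 0.21 at day 12, and the 5 SELE probes ran from -0.38 to 0.37. P-selectin (SELP), which captures leukocytes on activated endothelium, had 0.37 ± 0.11 at day 12 and was higher in 5 of 6 mares (limma adjusted p = 0.178). ITGA5, an integrin subunit through which ANGPTL2 acts in human and mouse cells, had 0.38 ± 0.21 and was likewise higher in 5 of 6 mares (limma adjusted p = 0.502). Among genes of vascular tone, the inducible nitric oxide synthase NOS2 had 0.78 ± 0.26 (limma adjusted p = 0.241), although its 7 probes ran from -0.26 to 0.91. The endothelin receptor genes EDNRA and EDNRB had 0.49 ± 0.28 and -0.38 ± 0.17. The endothelin EDN2 had -0.29 ± 0.12, although its 6 probes ran from -0.29 to 0.62. The natriuretic peptide gene NPPA, well above background on 1 pregnant array and 2 control arrays of that day, had -0.13 ± 0.36. The targets of hypoxia signalling LDHA and EPO, a glycolytic enzyme and the hormone of red cell formation, had 0.10 ± 0.14 and 0.29 ± 0.23. CTNNB1, the gene of beta-catenin, was the only measured member of the cadherin list and had 0.22 ± 0.11.

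**Figure D4:**
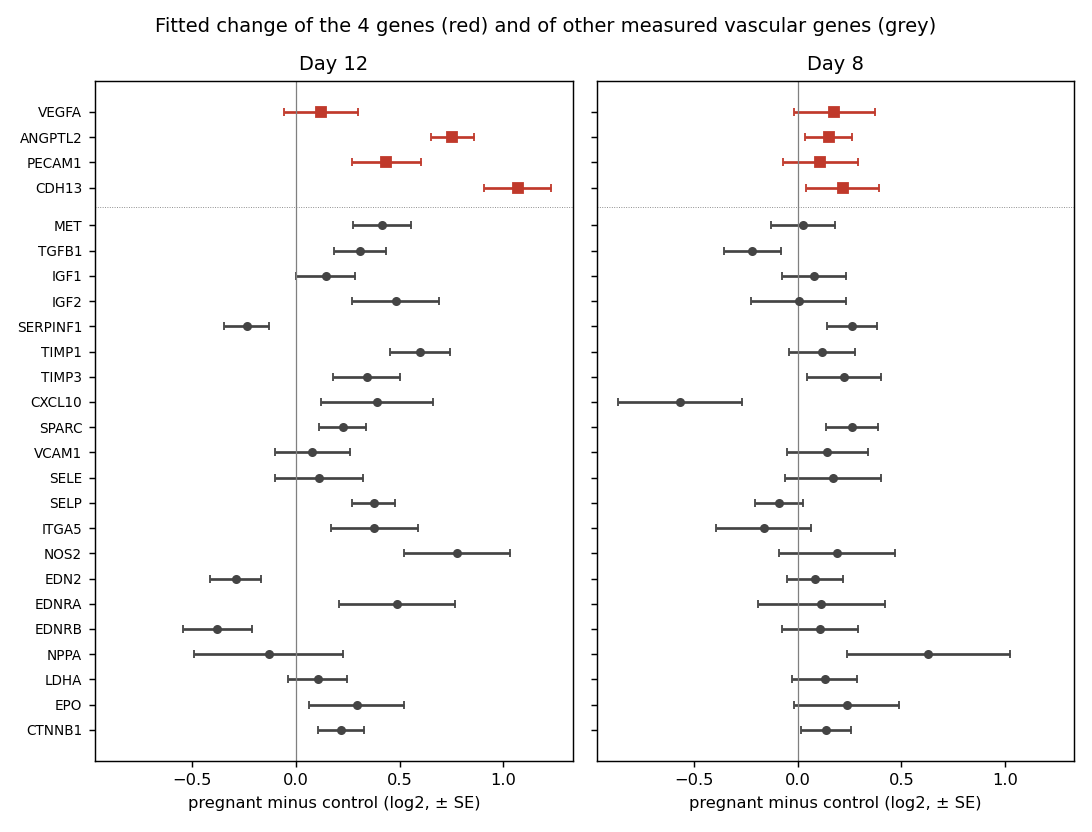
Fitted change with pregnancy (log2, pregnant minus control, points with SE bars) of the 4 genes (red squares) and of the 21 other measured vascular genes (grey circles) at day 12 (left, 6 mares) and day 8 (right, 5 mares). At day 12, ANGPTL2 and CDH13 lie at 0.75 and 1.07, and 17 of the 21 other genes lie above 0 without passing the test. Nothing is read from that count, because the lists were drawn up with earlier results known.

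By their brightest probes, 4 of the 21 genes rose in pregnant samples at day 12 against day 8 and 1 fell. Over all probes 24.3% passed and 11.1% rose, and nothing is read from the counts. The genes were listed with earlier results known, so their p-values are descriptive. Slide, scan day and software version cannot be told apart from day, and arrays that shared a slide were fitted as independent. The p-values therefore do not isolate an effect of day, here or for the marker genes below. MET rose by 0.67 ± 0.17 (limma adjusted p = 0.0161) in all 3 probes. TIMP3, another metalloproteinase inhibitor, rose by 0.64 ± 0.20 (limma adjusted p = 0.0370) in all 5 probes. EDNRA, the endothelin receptor of vascular smooth muscle, rose by 0.74 ± 0.20 (limma adjusted p = 0.0214), and CXCL10, an interferon-induced chemokine that restrains vessel growth, by 0.59 ± 0.20 (limma adjusted p = 0.0475, passed by 2 of its 5 probes). EDN2, an endothelin, fell by 0.79 on the log2 scale (SE 0.19, limma adjusted p = 0.0126) in its brightest probe, but its 6 probes ran from -0.79 to 0.45 and no other passed. In control samples none of the 21 passed by its brightest probe, where 7.1% of all probes did, with a median of 0.00 beside -0.01 over all probes. For SPARC, 1 of its 8 probes passed between the days in control samples, and 1 in pregnant samples.

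No measured marker of another cell type passed the test with pregnancy at day 12, where 0.265% of all probes did. With so small a share, this does not show that the mix of cells was stable. No endothelial marker beside the 4 genes, among the 14 listed, had a named probe that was tested, so the share of endothelium was not measured independently. Some of these markers may be on the array among the probes without a gene name. TAGLN, the 1 measured of 9 pericyte and smooth muscle markers, had 0.90 ± 0.23 at day 12, higher in 6 of 6 mares (limma adjusted p = 0.139), and 0.28 ± 0.25 at day 8. Its level ran from -1.43 to -0.35 in day 12 pregnant mares and from -2.85 to -1.08 in day 12 control samples, against -2.26 to -0.99 and -2.39 to -1.06 in day 8 pregnant and control samples. In pregnant samples it rose by 0.84 ± 0.28 between the days (limma adjusted p = 0.0462). TAGLN thus had the same sign as CDH13, which smooth muscle also carries, and its part in the CDH13 result was not tested.

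Of the leukocyte markers, whose cells can carry PECAM1, 5 of 12 were measured. Their summed level ran from 3.24 to 3.63 in day 12 pregnant, 2.80 to 3.59 in day 12 control, 3.20 to 3.62 in day 8 pregnant and 3.00 to 3.61 in day 8 control samples, so the groups overlapped throughout. CD14, a marker of monocytes, had 0.51 ± 0.16 with pregnancy at day 12 (limma adjusted p = 0.214) and rose by 1.01 ± 0.15 between the pregnant samples of the days (limma adjusted p = 0.00183), while LAPTM5, CD68 and ITGAX had -0.17, -0.23 and -0.61 and CD2 had 0.05. The 7 ITGAX probes ran from -0.61 to 0.83 and none passed. Of 7 platelet markers 2 were measured, and ITGA2B fell by 0.84 in the same comparison (limma adjusted p = 0.00283), while SELP had 0.35. Their summed level ran from -1.61 to -0.93 in day 12 pregnant, -1.69 to -1.01 in day 12 control, -1.25 to -0.60 in day 8 pregnant and -1.27 to -0.49 in day 8 control samples. The part of these cells in the PECAM1 result was not tested.

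The epithelial marker ESRP1, 1 measured of 8, had a level of 2.47 to 3.16 over all arrays. DCN and LUM, 2 measured of 7 stromal markers, had a summed level of 3.66 to 4.95. No other tissue was measured, so these levels do not test the tissue label. ESRP1 changed by 0.00 ± 0.08 with pregnancy at day 12 and by 0.09 ± 0.09 at day 8. DCN had 0.17 ± 0.13 and LUM 0.09 ± 0.21 at day 12. LUM fell by 0.63 in pregnant samples between the days (limma adjusted p = 0.0418) in its brightest probe, but its 6 probes ran from -0.63 to -0.22 and no other passed. HBA2, the 1 measured of 6 erythrocyte markers, had -0.40 ± 0.23 at day 12 and ran from -2.93 to -1.52 in day 12 pregnant and from -2.77 to -0.88 in day 12 control samples.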

How the data were processed

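Total RNA of endometrial biopsies was labelled with Cy3 and hybridised to 1-colour arrays, per the labels' protocols. The authors' deposited files hold spot intensities from Agilent Feature Extraction (10.5.1.1 for day 12 arrays, 10.7.3.1 for day 8 arrays, per the file headers). The authors' deposited value table was read as log2 from its agreement with the scanner values (slope 0.811 to 0.908). Its column medians run from 7.47 to 8.83 and its centring is not given in the sources used here, so it served as an alternative. Levels are log2 processed intensity minus the array's 75th percentile, with non-uniform spots (3 to 152 per array) left out and spots of a probe averaged. Probes well above background on at least 5 of 22 arrays were tested with limma 3.58.1 in R 4.3.3 (lmFit, eBayes, two-sided, Benjamini-Hochberg over all probes, threshold 0.05). Mare within day was a fixed block for the pregnancy effects, and comparisons between days had no covariates. Pairs come from the labels, and same-mare arrays deviated together (r 0.289 to 0.725 at day 12, 0.321 to 0.817 at day 8, 31038 probes). Accessions were named through a RefSeq table of the assembly TB-T2T, which gave 1 gene to 1394 probes, several to 1 and none to 42208. Coordinates and sequences were not used here. Each gene stands by its brightest probe, likeness names the 3 genes of highest r (1 of them is not reported here), and measured genes of 9 pathway and 7 marker lists are named. The 4 genes and these lists were chosen with earlier results of these data known. A test of VEGFA and PECAM1 between pregnant samples had been planned and is not reported, because those arrays entered the choice. The fits of the pregnancy effects were run on simulated data with a change at day 12, and the fits between days were not.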

Additional observations from a re-analysis of the deposited data

Results flagged for a closer look

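Among 88 groups of values that were checked for a sample standing apart, 8 held one by Dixon's criterion. Chance alone gives one in about 1 in 20 of all groups checked. CDH13 had 2 of the 8, both from mare 1 at day 8. The CDH13 level of its control sample was 0.30, against -1.54 to -1.05 in the other 4 day 8 control samples, and its CDH13 change was -0.42 where the other 4 mares had 0.30 to 0.58. With mare 1 left out, the day 8 change of CDH13 was 0.38 instead of 0.22.

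The other 6 concern genes listed beside the 4. At day 12, mare 3 stood apart for ESRP1 with 0.36, for HBA2 with -1.95 and for LUM with -1.11. Mare 5 stood apart at day 12 for ITGA5 with -0.38 and for SELP with -0.22, the mare in which PECAM1 also had -0.08. At day 8, mare 1 stood apart for NPPA with 2.91, a gene that cleared background on 4 pregnant arrays and 3 control arrays of that day. Mare 3 was also the one in which CDH13 had its smallest change, 0.41, and PECAM1 had its lowest change, -0.32.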

How the results depend on the processing

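Of 324 values of the 4 genes recomputed under alternatives, 321 moved by less than the SD between mares or, where tested, kept their side of the threshold. Exceptions were VEGFA's difference of effects, which moved by more (0.58 with normexp), and PECAM1 in pregnant samples between the days. PECAM1 had 2 exceptions, 0.76 with normexp and 1.05 in the authors' table. They were counted because they did not keep their side of the threshold in the planned test that is not reported, and not for their size. Normexp was run on the spot median, chosen after seeing the data, and the version planned on the spot mean was not run because the files used here hold no spot mean. The normexp median of 1 array, day 12 pregnant mare 1, was -0.20, against -2.15 to -1.78 in the other 21, and the median change of all probes was 0.34 at day 12. Normexp with mare 1 left out was also chosen after seeing the data and gave 0.86 for PECAM1 in pregnant samples. Leaving out each mare number gave day 12 changes of -0.06 to 0.22 for VEGFA, 0.69 to 0.81 for ANGPTL2, 0.33 to 0.59 for PECAM1 and 0.94 to 1.20 for CDH13, and pregnant day differences of 0.81 to 1.02 for PECAM1.

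Counts over all probes moved more, and the cause was not tested. At day 12, 102 probes passed, against 13 with normexp, 303 in the authors' table, 218 with probes above background on all 22 arrays, 287 with a trended robust prior, 41 with no replicate block, that is without pairing by mare, and 9 with that day's arrays alone. Leaving out a mare gave 22 (mare 1) to 977 (mare 3), and every mare but mare 5 moved the count by over 1.5 times. At day 8 no probe passed limma in any alternative, with 2243 at an unadjusted p under 0.05. For the difference of effects 4 passed, against 0 with quantile normalisation, the authors' table, the 22-array filter or no replicate block, 2 with no filter or slide as a block, 11 with the trended prior, 7 with normexp without mare 1, and 0 to 33 (mare 3) with a mare left out, all but mare 2 moving it so. Control days gave 2732, against 1645 with normexp, 1003 with normexp without mare 1, 4458 with quantile normalisation, 282 in the authors' table, 772 with slide as a random block, 211 with scan day as one, and 347 (mare 4) to 2046 with a mare left out, all but mare 2 moving it so. Pregnant days gave 9332, against 388 with normexp, 836 in the authors' table, 3437 with scan day, and 5478 (mare 4) to 8833 with a mare left out, mares 4, 5 and 6 moving it so. Without the replicate block no call of the 4 genes at day 8 changed.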
